A study of Mus musculus with 8 samples.

Results

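A set of 8 genes of the tumour necrosis factor (TNF) ligand and receptor families, of the 23337 gene symbols counted in each library, was followed across fasted and refed livers of WT and HRD1Alb mice. They are Tnfrsf12a, the receptor for TWEAK, and Tnfsf12, which encodes TWEAK, together with the receptors Tnfrsf10b, Tnfrsf1a, Tnfrsf1b, Fas and Tnfrsf21 and the ligand Tnfsf10. They were chosen by symbol and not by a threshold, but with their values in these libraries already known. Their levels and differences are therefore given as a description, without printed p-values. Where it is stated below which of them passed a threshold, that is a description too.

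TNF family ligands are trimeric proteins that cluster their receptors at the cell surface. Receptors with a cytoplasmic death domain can recruit adaptors such as FADD and TRADD and lead to caspase activation or to NF-kB signalling, whereas receptors without one, such as the TWEAK receptor (Fn14), bind TRAF proteins directly. In liver, Fas and TNF receptors are known for hepatocyte injury, the TWEAK receptor is known as a gene of injured and regenerating liver, and Tnfrsf10b is known as a target of CHOP, a transcription factor of the endoplasmic reticulum stress response encoded by Ddit3.

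The samples were whole livers of 12-week-old C57BL/6 mice, with 2 libraries in each of 4 groups. WT mice carried the floxed HRD1 alleles without Cre, and HRD1Alb mice carried the same alleles with Alb-Cre. This Cre is driven by the albumin promoter and, according to the paper, acts from early in liver development. Which liver cells other than hepatocytes keep the gene was not tested. The labels call the second genotype KO and Hrd1-/-. HRD1, listed under its symbol Syvn1, is an endoplasmic reticulum ubiquitin ligase. Mice of both genotypes were fasted overnight, and the refed groups were then fed for 4 h. Nothing in the labels says that the 2 libraries of a group came from separate mice, so the spread between them may be technical, and the sex of the mice was not stated.

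Each library held between 40210576 and 49117080 counts, at which 3 counts correspond to 0.0611 to 0.0746 CPM (counts scaled to a common library size). The 4 detected hepatocyte markers (Alb, Apoa1, Ttr and Apoh) summed to 56277 to 133634 CPM in each library, as the tissue label says. Syvn1 was at 111 and 99.8 CPM in fasted WT and at 32.6 and 31.5 CPM in fasted HRD1Alb. In the refed groups it was at 637 and 305 CPM in WT and at 453 and 132 CPM in HRD1Alb, so that the first library labelled refed HRD1Alb lay above the second library labelled refed WT. These counts cover the whole gene and not the deleted part alone, and the refed labels are therefore not checked by them. Below, refed WT and refed HRD1Alb mean the libraries labelled so. The refed HRD1Alb libraries also differed from each other, by at least 2-fold in 3204 tested genes against 424 to 1141 in the other groups. The log2 ratio of the second to the first was lower for longer transcripts, with a Spearman's rho of -0.580 over 12968 genes, against -0.111 to 0.0313 in the other groups. For these reasons the refed values below are also given without each refed HRD1Alb library.

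Markers of other cell types differed between the genotypes. The summed level of 6 Kupffer cell markers was 77.4 to 93.0 CPM in the 4 WT libraries and 180.3 to 410 CPM in the 4 HRD1Alb libraries, and that of 6 monocyte or macrophage markers was 21.5 to 23.7 against 48.4 to 101 CPM. Of these markers, 0 of 6 and 2 of 6 (Emr1 and Cd68) were higher in HRD1Alb at an adjusted p under 0.05 in the fasted state, and 4 of 6 and 4 of 6 in the refed state. Over all genes tested in edgeR, 0.921% were higher at that threshold in the fasted state and 7.09% in the refed state. The 6 Kupffer markers were all at an unadjusted p under 0.05 in the fasted state, and DESeq2 called 5 of them and limma 0. T or NK cell markers summed to 1.53 to 1.85 CPM in WT and 3.19 to 10.6 CPM in HRD1Alb, whereas the hepatocyte sum was 96757 to 133634 CPM in WT and 56277 to 98114 CPM in HRD1Alb. Markers of stellate cells summed to 157 to 325 CPM in WT and 311 to 403 CPM in HRD1Alb, of neutrophils to 1.05 to 1.86 and 1.42 to 9.14 CPM, of B cells to 2.02 to 3.26 and 3.05 to 5.39 CPM, of endothelial cells to 83.7 to 99.9 and 91.3 to 107 CPM, and of cholangiocytes to 32.1 to 68.3 and 29.1 to 52.9 CPM. None of the markers found was at 0 in all libraries. In whole liver, more cells of a type and more RNA per cell cannot be told apart, and the part of these markers in the values below was not tested.

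Upstream windows of 250 bases were found for 6 of the 8 genes in RefSeq (GRCm38.p6). That of Tnfrsf1a begins inside an annotated exon, and none of it is shown. Shown here are those of Tnfrsf12a and Tnfrsf21, which were higher in both HRD1Alb libraries than in both WT libraries in either feeding state, and that of Fas, which was not. Each runs 5′ to 3′ on the gene's strand and ends at the base before the RefSeq start, except for Tnfrsf12a. For Tnfrsf12a it is chr17:23677469-23677699 (minus strand, where the last 19 bases before the start lie in annotated exons and are not shown), for Tnfrsf21 chr17:43016305-43016554 (plus) and for Fas chr19:34290409-34290658 (plus). Capitals mark the GC box GGGCGG read on either strand and, in Fas, the AP-1 letters TGANTCA.
Tnfrsf12a: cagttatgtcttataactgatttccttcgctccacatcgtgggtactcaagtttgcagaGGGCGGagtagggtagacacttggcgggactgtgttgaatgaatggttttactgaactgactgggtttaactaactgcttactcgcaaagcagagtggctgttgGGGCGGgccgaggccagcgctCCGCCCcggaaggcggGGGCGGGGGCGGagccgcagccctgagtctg
Tnfrsf21: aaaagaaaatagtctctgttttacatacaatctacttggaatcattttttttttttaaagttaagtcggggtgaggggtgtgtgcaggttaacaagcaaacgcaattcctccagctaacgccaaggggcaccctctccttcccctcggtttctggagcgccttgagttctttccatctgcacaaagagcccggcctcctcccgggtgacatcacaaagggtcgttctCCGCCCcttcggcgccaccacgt
Fas: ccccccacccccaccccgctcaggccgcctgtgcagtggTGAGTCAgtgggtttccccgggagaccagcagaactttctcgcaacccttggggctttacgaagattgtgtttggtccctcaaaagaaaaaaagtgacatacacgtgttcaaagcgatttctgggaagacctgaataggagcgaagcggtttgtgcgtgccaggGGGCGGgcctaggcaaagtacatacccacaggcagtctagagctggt

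Tnfrsf12a held 5 GC box matches within 191 bases of its start, 4 on its own strand and 1 on the opposite strand, and 2 of them adjoined each other. Tnfrsf21 held 1 match, 23 to 18 bases before its start, and Fas held 1 match, 47 to 42 bases before its start. Letters were searched in all 250 bases of each window, annotated exons included, in the 6 genes and in all RefSeq windows alike. GC box letters occurred in 4 of the 6 genes, the other being Tnfrsf1b, and in 32.7% of 32851 RefSeq upstream windows of 250 bases. The AP-1 letters in Fas, 211 to 205 bases before its start, occurred in 6.75% of windows. The ATF4-C/EBP composite TGATGNAA (3.45% of windows), the NF-kB consensus (7.25%) and the TATA box TATAAA (12.4%) had no match in the 250 bases of the 6 genes on either strand. A match is only a match of letters, and its absence refers to these windows alone.

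Tnfrsf12a, the TWEAK receptor gene (chr17:23675445-23677468, minus strand, GRCm38), was highest in refed HRD1Alb liver. Its level was 7.81 and 8.86 CPM in fasted WT, 11.9 and 14.4 CPM in fasted HRD1Alb, 6.91 and 5.38 CPM in refed WT, and 42.0 and 47.7 CPM in refed HRD1Alb. Both HRD1Alb libraries lay above both WT libraries in either feeding state, and both refed HRD1Alb libraries lay far above the other 6. The HRD1Alb mean was 1.58 times the WT mean in the fasted state and 7.30 times in the refed state, with log2 fold changes of 0.66 ± 0.20 and 2.87 ± 0.21 (SE, n = 2 per group). Refeeding went with a log2 difference of -0.44 ± 0.20 in WT and 1.77 ± 0.20 in HRD1Alb. The refed genotype difference was 2.95 without the first refed HRD1Alb library and 2.77 without the second, and 2.39 after removal of the transcript length trend. The 2 refed HRD1Alb libraries, which parted on Syvn1 and on long and short genes, were thus close to each other on this gene.

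Tnfsf12, the gene of the ligand TWEAK (chr11:69686250-69695849, minus strand), was at 3.79 and 4.19 CPM in fasted WT, 6.49 and 6.50 CPM in fasted HRD1Alb, 3.36 and 4.65 CPM in refed WT, and 5.65 and 11.7 CPM in refed HRD1Alb. The HRD1Alb libraries lay above the WT libraries in both states, and the second refed HRD1Alb library was far above the first. Its log2 difference between genotypes was 0.70 ± 0.35 fasted and 1.11 ± 0.35 refed (SE, n = 2), and the refed value became 1.54 without the first and 0.49 without the second refed HRD1Alb library. Per kilobase of exon, the receptor transcript was 1.57 to 2.99 times the ligand transcript in 6 libraries, and 10.1 and 5.52 times in the 2 refed HRD1Alb libraries. Tnfsf12 shares its locus with the read-through gene Tnfsfm13 on the same strand and with Tnfsf13os on the opposite strand, and its counts are therefore uncertain.

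**Figure D1:**
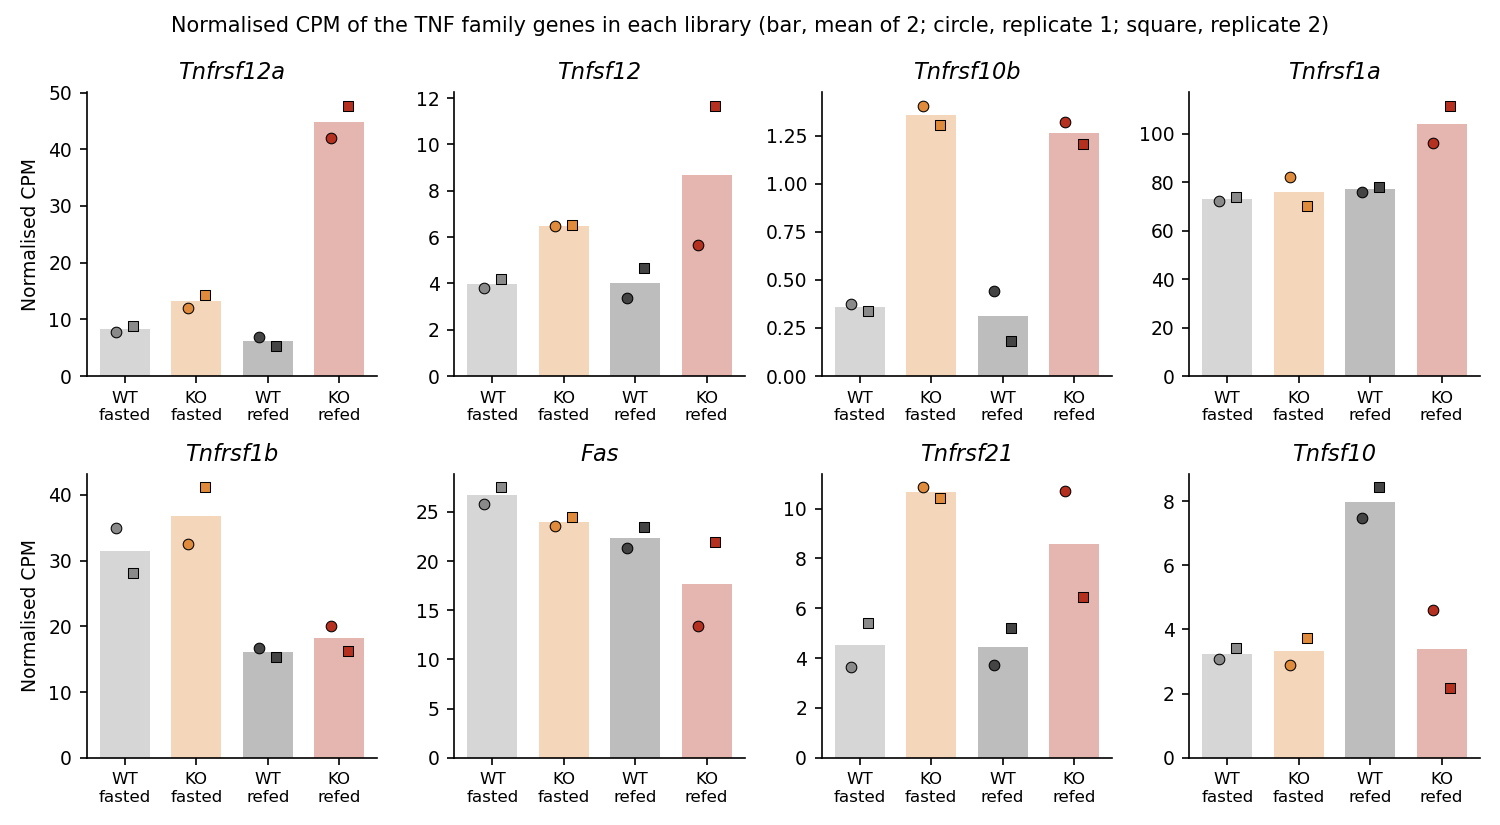
Normalised CPM (y axis, from 0) of each gene in the 8 libraries by group; bars are means of 2 libraries, circles replicate 1 and squares replicate 2, and KO stands for HRD1Alb. Tnfrsf12a stood at 42.0 and 47.7 CPM in refed HRD1Alb and at 14.4 CPM or less elsewhere, while Tnfrsf10b was above 1.2 CPM in all 4 HRD1Alb libraries and below 0.45 CPM in all 4 WT libraries.

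Tnfrsf10b (chr14:69767472-69784411, plus strand) encodes the death domain receptor for TRAIL, also known as DR5. It was the least abundant of the 8 genes, with 7 to 18 counts in the WT libraries and 55 to 78 counts in the HRD1Alb libraries. Its level was 0.374 and 0.341 CPM in fasted WT, 1.41 and 1.31 CPM in fasted HRD1Alb, 0.444 and 0.184 CPM in refed WT, and 1.32 and 1.21 CPM in refed HRD1Alb. The genotypes did not overlap, and within a genotype the fasted and refed libraries were close. The genotype difference was 3.80-fold in the fasted state (log2 1.92 ± 0.42, SE) and 4.02-fold in the refed state (log2 1.99 ± 0.43, SE), and the refeeding differences were -0.18 ± 0.46 in WT and -0.10 ± 0.38 in HRD1Alb on the log2 scale. Leaving out either refed HRD1Alb library gave 1.91 and 2.05 for the refed genotype difference. At these counts the refed WT value rests on 18 and 7 reads.

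Tnfsf10, the gene of the ligand TRAIL (chr3:27317028-27342427, plus strand), had another pattern. It was at 3.07 and 3.41 CPM in fasted WT, 2.89 and 3.74 CPM in fasted HRD1Alb, 7.48 and 8.43 CPM in refed WT, and 4.60 and 2.17 CPM in refed HRD1Alb. The refed WT libraries were above all 6 others, and the fasted genotypes overlapped. Refeeding went with a 2.46-fold higher mean in WT (log2 1.30 ± 0.36, SE) and with a log2 difference of 0.03 ± 0.35 in HRD1Alb. In the refed state HRD1Alb was lower than WT by a log2 difference of -1.23 ± 0.36, which was -1.88 without the first and -0.79 without the second refed HRD1Alb library. Per kilobase, Tnfrsf10b was 0.0361 to 0.202 times Tnfsf10 in the WT libraries and 0.475 to 0.920 times in the HRD1Alb libraries, without overlap.

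Tnfrsf1a (chr6:125349362-125362484, plus strand) encodes TNF receptor 1, which carries a death domain and is expressed by most cells. It was at 72.3 and 74.0 CPM in fasted WT, 82.0 and 70.1 CPM in fasted HRD1Alb, 76.1 and 78.2 CPM in refed WT, and 96.3 and 112 CPM in refed HRD1Alb. Only the refed HRD1Alb libraries stood above the range of the other 6, and the refed genotype difference was 0.43 ± 0.16 on the log2 scale (SE, n = 2), or 0.24 after removal of the length trend. The fasted genotype difference was 0.06 ± 0.16.

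Tnfrsf1b (chr4:145213463-145246870, minus strand) encodes TNF receptor 2, which lacks a death domain. It was at 34.9 and 28.1 CPM in fasted WT, 32.5 and 41.2 CPM in fasted HRD1Alb, 16.7 and 15.3 CPM in refed WT, and 20.0 and 16.3 CPM in refed HRD1Alb. All 4 refed libraries were below all 4 fasted libraries, and the genotypes overlapped in both states. The refed mean was 0.509 times the fasted mean in WT and 0.493 times in HRD1Alb, and the genotype differences were 0.23 ± 0.20 fasted and 0.18 ± 0.20 refed on the log2 scale. Per kilobase, Tnfrsf1a was 3.02 to 4.67 times Tnfrsf1b in the fasted libraries and 8.05 to 12.1 times in the refed libraries.

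Fas (chr19:34290666-34327772, plus strand), the death receptor for Fas ligand, was at 25.8 and 27.5 CPM in fasted WT, 23.5 and 24.4 CPM in fasted HRD1Alb, 21.3 and 23.4 CPM in refed WT, and 13.4 and 21.9 CPM in refed HRD1Alb. The fasted HRD1Alb libraries lay just below the fasted WT libraries, and the refed genotypes overlapped. The refed genotype difference of -0.34 ± 0.24 (log2, SE) was -0.04 without the first and -0.74 without the second refed HRD1Alb library. Its size thus depended on which library was kept, and it was -0.65 after removal of the length trend. Refed libraries lay below fasted libraries in both genotypes, by -0.25 ± 0.24 in WT and -0.44 ± 0.24 in HRD1Alb (log2, SE).

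Tnfrsf21 (chr17:43016555-43089189, plus strand), the gene of death receptor 6, was at 3.64 and 5.40 CPM in fasted WT, 10.9 and 10.4 CPM in fasted HRD1Alb, 3.70 and 5.20 CPM in refed WT, and 10.7 and 6.47 CPM in refed HRD1Alb. All HRD1Alb libraries were above all WT libraries, by a narrow gap for the second refed HRD1Alb library. The genotype difference was 1.23 ± 0.32 fasted and 0.95 ± 0.32 refed (log2, SE, n = 2), and the refed value was 0.53 without the first and 1.26 without the second refed HRD1Alb library.

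**Figure D2:**
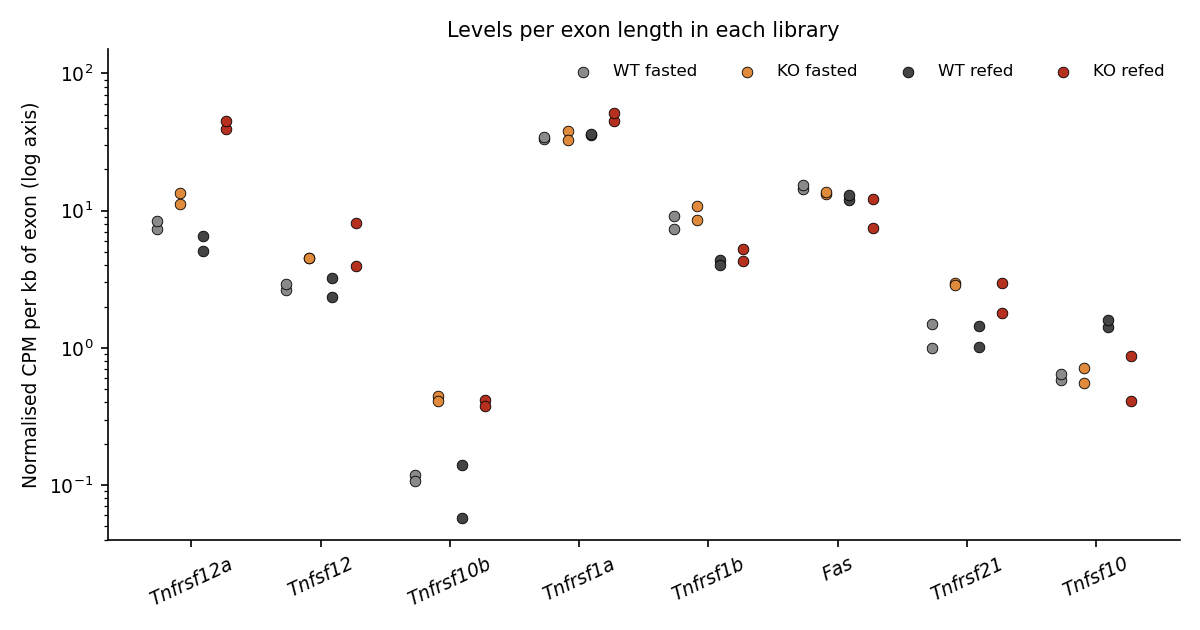
Normalised CPM per kilobase of exon (y axis, log scale) of the 8 genes; each point is a library, coloured by group, and KO stands for HRD1Alb. Tnfrsf1a was the highest in each group by mean, Tnfrsf12a came next to it at 39.6 and 45.0 in refed HRD1Alb, and Tnfrsf10b was the lowest by mean.

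Set side by side per kilobase of exon, Tnfrsf1a had the highest mean level in every group, at 33.9 in fasted WT, 35.3 in fasted HRD1Alb, 35.8 in refed WT and 48.2 in refed HRD1Alb. In fasted WT the order below it was Fas, Tnfrsf1b, Tnfrsf12a, Tnfsf12, Tnfrsf21, Tnfsf10 and Tnfrsf10b, of which only Tnfrsf1b and Tnfrsf12a overlapped as neighbours. In fasted HRD1Alb Tnfrsf12a came after Fas (12.4) and overlapped Fas (13.4). In refed WT it again came after Fas (5.79), without overlapping Fas above it or Tnfrsf1b below it, and Tnfsf10 (1.51) overlapped Tnfrsf21 (1.23). In refed HRD1Alb Tnfrsf12a stood second at 42.3 and overlapped Tnfrsf1a, and the neighbours Fas and Tnfsf12, Tnfsf12 and Tnfrsf1b, and Tnfsf10 and Tnfrsf10b overlapped too.

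**Figure D3:**
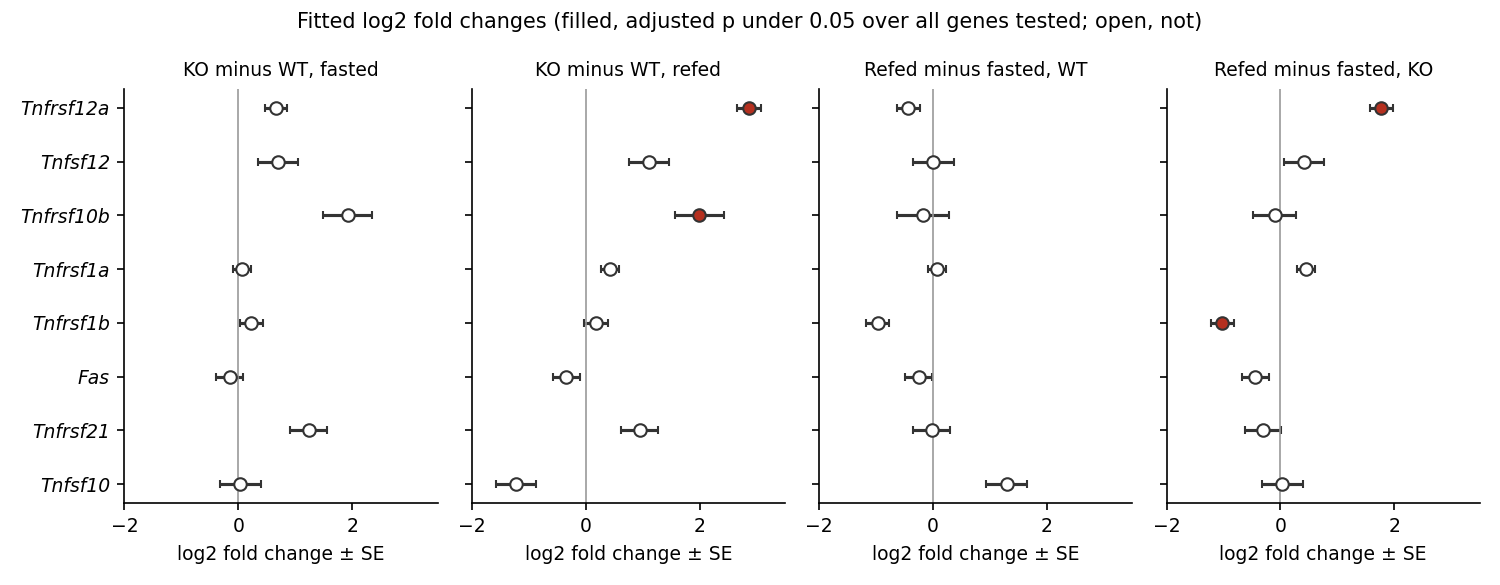
Fitted log2 fold changes with their SE (x axis) of the 8 genes in 4 comparisons of 2 libraries against 2; filled points passed an adjusted p of 0.05 over all genes tested, open points did not, and KO stands for HRD1Alb. The highest value was 2.87 for Tnfrsf12a in the refed genotype comparison, and Tnfrsf1b was near -1 on refeeding in both genotypes.

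All 8 genes passed the filter on low counts. Since they were chosen with their values known, the calls that follow only describe them. In the fit of edgeR across 14328 genes, 0 of the 8 passed an adjusted p of 0.05 in the fasted genotype comparison, where 1.35% of all genes did (0.921% higher). At an unadjusted p under 0.05 the count was 3 (Tnfrsf12a, Tnfrsf10b and Tnfrsf21), DESeq2 called 2 (Tnfrsf10b and Tnfrsf21) and limma 0. In the refed genotype comparison 2 of 8 passed, both higher (Tnfrsf12a and Tnfrsf10b), where 11.9% of all genes passed, 7.09% higher and 4.84% lower. On refeeding, 0 of 8 passed in WT (background 2.61%, unadjusted 2, DESeq2 2, limma 0) and 2 of 8 in HRD1Alb, with Tnfrsf12a higher and Tnfrsf1b lower (background 10.5%, 5.43% higher and 5.05% lower). In the test of whether refeeding differed between genotypes, 0 of 8 genes and 0 of 14328 (0%) passed in edgeR, with 2 of the 8 at an unadjusted p under 0.05, 1 by DESeq2 (Tnfrsf12a) and 0 by limma. Leaving out either refed WT library took both refed calls away, and leaving out any of the 4 fasted libraries took away that of Tnfrsf10b.

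The median log2 fold change of the 8 genes was 0.44 in the fasted and 0.69 in the refed genotype comparison, against -0.02 and 0.04 over all genes tested. HRD1Alb libraries lay wholly above WT libraries for 4 of the 8 fasted and 5 of the 8 refed, where 30.6% and 30.7% of all genes did, and wholly below for 1 in each state (34.2% and 30.1%). Refed libraries lay wholly above fasted libraries for 2 of the 8 in WT (30.8% of all genes) and 2 in HRD1Alb (29.2%), and wholly below for 3 in WT (29.6%) and 2 in HRD1Alb (29.5%). Since the genes were chosen with these values known, these counts are a description and carry no weight of their own.

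Of 90 other genes of the pathway tested, 4 passed in the fasted and 15 in the refed genotype comparison (limma 4 and 12, DESeq2 8 and 25). Of all 14328 genes, 1.35% and 11.9% passed in edgeR, while limma called 260 and 1734 and DESeq2 1094 and 3190. The 4 fasted calls were all lost when any WT library or any fasted HRD1Alb library was left out. Without either refed WT library, Ddit3 alone of the 15 refed calls was kept, and 7 or 8 were kept without any 1 of the fasted libraries. The adjusted p-values that follow are to be read with this loss. The lists of other genes were also chosen with earlier results of these data known. Calls and adjusted p-values within them are therefore a description and not a test of lists set beforehand.

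The other ligands of these receptors were scarce. Tnf itself was at 0.0908 to 0.198 CPM in the 6 libraries other than refed HRD1Alb and at 0.355 and 0.658 CPM (21 and 30 counts) in refed HRD1Alb, with an adjusted p = 0.092 in the edgeR fit. Lta, which encodes lymphotoxin alpha, had 0 to 4 counts and Fasl, which encodes Fas ligand, 2 to 14 counts per library, and neither was tested. Of 6 tested genes among 16 other TNF family ligands, 0 passed in edgeR in the fasted genotype comparison (1 at an unadjusted p under 0.05, 0 by DESeq2 and 0 by limma). The list medians were 0.48 fasted and 0.33 refed on the log2 scale. In the refed comparison, where 11.9% of all genes passed, 1 of the 6 was higher. This was Ltb, the lymphotoxin beta gene, with a log2 fold change of 1.67 ± 0.43 and an adjusted p = 0.048, which was 0.079 without the second refed HRD1Alb library. Limma called 0 of the 6 in the refed state and DESeq2 called 1. The edgeR call of Ltb was also lost after removal of the length trend.

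Among 22 other TNF receptor genes, 16 were tested. In fasted liver 2 of them were higher in HRD1Alb and none was lower, with the same count in DESeq2 and in limma. Among all genes, 1.35% passed in edgeR in the fasted and 11.9% in the refed comparison. Tnfrsf23, a mouse decoy receptor for TRAIL, was at 0.468 CPM in WT and 3.06 CPM in HRD1Alb (log2 2.70 ± 0.33, adjusted p = 0.021), and Eda2r, a receptor for an ectodysplasin isoform, was at 0.370 and 3.67 CPM (log2 3.30 ± 0.58, adjusted p = 0.048). Both fasted calls were lost when any of the 4 WT or 2 fasted HRD1Alb libraries was left out. In refed liver Tnfrsf23 alone passed, at 0.525 CPM in WT and 1.65 CPM in HRD1Alb (adjusted p = 0.026), where DESeq2 called 4 and limma 1. The median log2 fold change of the 16 was 0.84 fasted and 0.79 refed.

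Of 21 genes of death signalling downstream of the receptors, 0 passed in edgeR in the fasted state (3 unadjusted, 1 by DESeq2 and 0 by limma) and 3 in the refed state (5 by DESeq2 and 1 by limma), where 11.9% of all genes passed. Ripk3, the kinase of necroptosis, was higher (0.520 against 1.46 CPM, log2 1.48 ± 0.38, adjusted p = 0.049), as was Bax, a pore-forming protein of mitochondria (17.8 against 36.1 CPM, log2 1.02 ± 0.27, adjusted p = 0.0495). Casp9, the initiator caspase of the mitochondrial pathway, was lower (21.2 against 12.5 CPM, log2 -0.76 ± 0.16, adjusted p = 0.030). The list median was -0.16 fasted and -0.12 refed, and 18 of the 21 did not pass in the refed state. The call of Bax was lost after removal of the length trend. Limma did not call Ripk3 and Bax, and Ripk3 had an adjusted p = 0.082 without the second refed HRD1Alb library. Of 25 TRAF and NF-kB genes, 0 passed in edgeR in the fasted state (1 unadjusted, 0 by DESeq2 and 0 by limma) and 1 in the refed state, Relb of the non-canonical NF-kB pathway, at 1.15 CPM in WT and 3.52 CPM in HRD1Alb (log2 1.61 ± 0.25, adjusted p = 0.015). DESeq2 called 4 of the 25 and limma 1. The median of the 25 was -0.12 fasted and -0.28 refed.

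Of 13 tested genes known to be induced by TNF, 1 rose in fasted and 5 in refed HRD1Alb liver, and none fell in edgeR. Over all genes, 0.921% were higher in the fasted and 7.09% in the refed comparison. DESeq2 called 3 and 6 of the 13, and limma 1 and 5. The list medians were 0.59 and 1.12 on the log2 scale. Vcam1, a leukocyte adhesion molecule, passed in both states, at 6.96 against 31.3 CPM fasted (adjusted p = 0.017) and 4.10 against 17.5 CPM refed (adjusted p = 0.0086). The chemokine genes Ccl2 (0.215 against 1.91 CPM, adjusted p = 0.013), Ccl5 (0.723 against 3.62 CPM, adjusted p = 0.018) and Cxcl10 (4.27 against 9.29 CPM, adjusted p = 0.040) passed in the refed state. Cxcl2 also passed (adjusted p = 0.049), but with 2 and 0 counts in refed WT it was at or near the floor there. The Kupffer and macrophage marker sums given above were higher in the same libraries, and their part in these values was not tested.

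**Figure D4:**
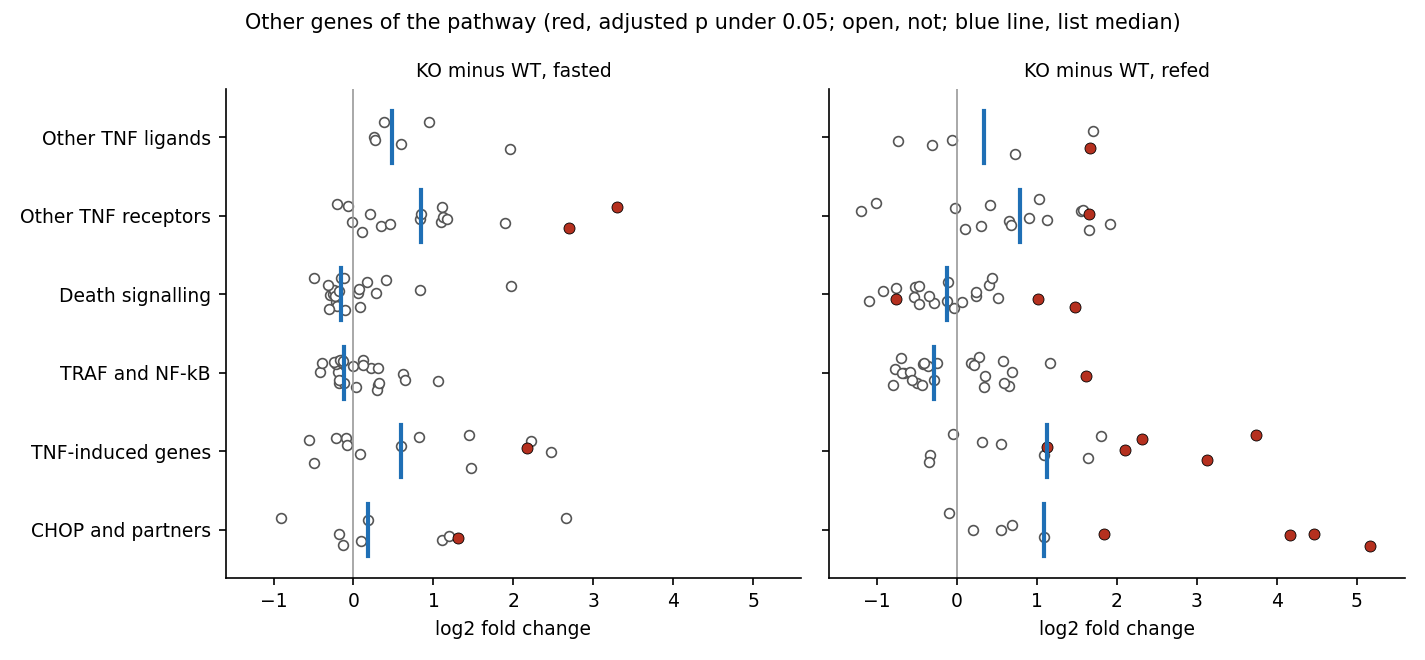
Log2 fold changes between genotypes (x axis) of the tested genes of 6 lists, fasted and refed; each point is a gene, red where its adjusted p was under 0.05, blue lines are list medians, and KO stands for HRD1Alb. In all, 4 of 90 genes passed in the fasted state and 15 of 90 in the refed state, 14 of them higher. The shares over all genes tested were 1.35% and 11.9%.

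On refeeding, 4 of the 90 genes passed in WT (3 higher and 1 lower) and 14 in HRD1Alb (8 higher and 6 lower). Among all genes, 2.61% and 10.5% passed. Limma kept 11 of the 14, losing Ltb, Relb and Trib3. The medians were 0.15 and 0.21 on the log2 scale against 0.00 and 0.02 over all genes tested. Of the 16 other receptors, 0 passed in edgeR on refeeding in WT (0 unadjusted, 0 by DESeq2 and 0 by limma) and 0 in HRD1Alb (4 unadjusted, 2 by DESeq2 and 0 by limma). Among the TNF-induced genes, Cxcl10 was higher after refeeding in both, at 1.52 against 4.27 CPM in WT and 1.43 against 9.29 CPM in HRD1Alb (adjusted p = 0.043 and 0.0044). The call in WT was lost when any WT or any fasted HRD1Alb library was left out, and that in HRD1Alb when either fasted HRD1Alb library was. Relb was higher after refeeding in HRD1Alb (1.81 against 3.52 CPM, adjusted p = 0.049).

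CHOP and its partners were set beside Tnfrsf10b and Tnfrsf12a. Ddit3, which encodes CHOP, was at 6.66 and 5.62 CPM in fasted WT, 15.5 and 14.8 CPM in fasted HRD1Alb, 16.1 and 11.3 CPM in refed WT, and 251 and 241 CPM in refed HRD1Alb. It was higher in HRD1Alb in both states (log2 1.30 ± 0.21, adjusted p = 0.040, and 4.17 ± 0.23, adjusted p = 0.0013) and rose on refeeding in both genotypes (log2 1.16 ± 0.21, adjusted p = 0.038 in WT, and 4.02 ± 0.22, adjusted p = 0.0015 in HRD1Alb). Between fasted and refed HRD1Alb liver, Ddit3 thus differed 16.2-fold and Tnfrsf12a 3.41-fold, while Tnfrsf10b was 0.930 times its fasted mean. The call of Ddit3 on refeeding in WT was lost after removal of the length trend. It was also lost when any WT or any fasted HRD1Alb library was left out. Its fasted genotype call was likewise lost when any WT or any fasted HRD1Alb library was left out. That call was also lost after removal of the length trend without the replicate block, and kept with the block.

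**Figure D5:**
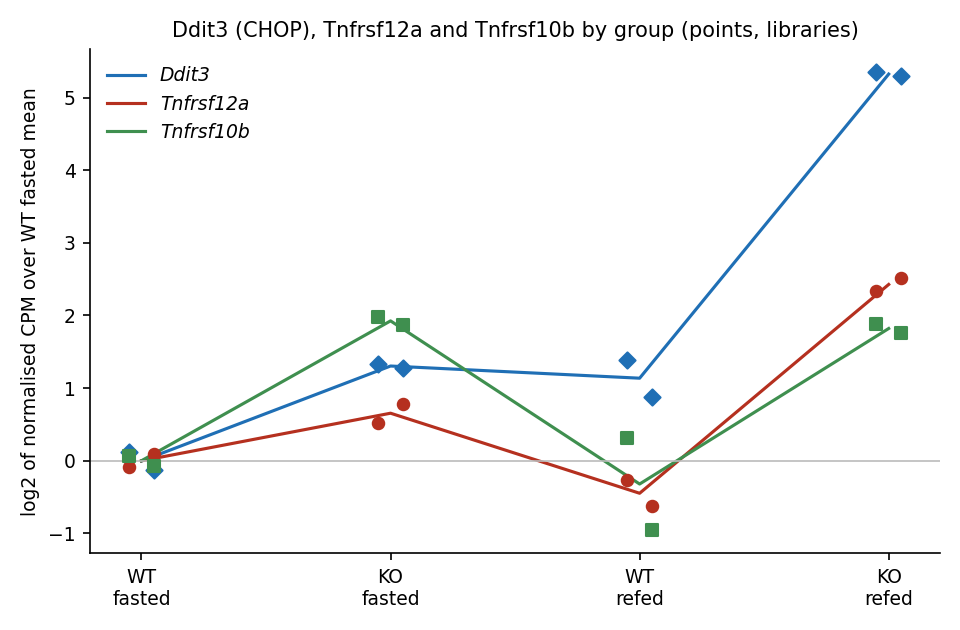
Log2 of normalised CPM relative to the fasted WT mean (y axis) of Ddit3, Tnfrsf12a and Tnfrsf10b in the 4 groups; points are libraries, lines join group means, and KO stands for HRD1Alb. In fasted HRD1Alb Tnfrsf10b lay above Ddit3, and in refed HRD1Alb Ddit3, at 251 and 241 CPM, lay far above both receptors.

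Of the 9 genes of the CHOP list, 1 passed in the fasted genotype comparison (Ddit3) and 4 in the refed one, all higher. The shares of all genes passing were 1.35% and 11.9%. DESeq2 called 2 and 5 of the 9, and limma 1 and 4, with list medians of 0.18 and 1.10 on the log2 scale. Of the edgeR calls, the refed one of Ddit3 was kept under every alternative. Trib3, a pseudokinase induced by CHOP, was at 7.18 CPM in refed WT and 159 CPM in refed HRD1Alb (log2 4.47 ± 0.52, adjusted p = 0.0090), and the transcription factor gene Atf3 was at 1.55 and 55.6 CPM (log2 5.16 ± 0.82, adjusted p = 0.015). Chac1, which encodes a glutathione-degrading enzyme, was at 0.576 and 2.05 CPM (adjusted p = 0.039), a call lost after removal of the length trend. Trib3 and Atf3 were unequal between the 2 refed HRD1Alb libraries, at 241 and 76.7 CPM and at 79.6 and 31.7 CPM. The other 5 did not pass in either genotype comparison, with refed log2 fold changes of 0.69 for Atf4, 0.55 for Ppp1r15a, 0.20 for Ero1l, -0.10 for Bbc3 and 1.10 for Pmaip1.

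Likeness to each receptor was measured as the mean absolute difference, over the 8 libraries, between log2 CPM values centred on each gene's own mean, with smaller values for more alike genes. The genes nearest to Tnfrsf12a were Angptl6 (0.21), Ccnd1 (0.22), Cyb5r1 (0.28), Fam26f (0.29), Rpl13a (0.32) and C1qtnf1 (0.32), where the median over 11927 genes was 0.97. Ccnd1, the cyclin D1 gene, was at 26.7 CPM in fasted WT, 59.3 CPM in fasted HRD1Alb, 34.6 CPM in refed WT and 188 CPM in refed HRD1Alb. The genes nearest to Tnfrsf10b were Cd300a (0.21), Tbc1d9 (0.21), Chpf (0.22), D2Ertd750e (0.23), Ube2c (0.24) and Cd83 (0.25), where the median was 1.02. Cd300a, an inhibitory receptor of leukocytes, was at 1.81, 5.96, 1.64 and 5.45 CPM in the same order of groups. Between the listed genes themselves, the distance of Tnfrsf10b was 0.51 to Tnfrsf21, 0.62 to Tnfrsf12a and 1.39 to Ddit3. Of the genes compared, 94.6% were nearer to Tnfrsf10b than Ddit3 was. From Tnfrsf12a the distance to Ddit3 was 0.96, and 47.2% of genes were nearer. The measure also depends on the size of changes, so distances to Ddit3, whose range was wide, do not show likeness of pattern alone. A link between CHOP and either receptor was not tested.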

How the data were processed

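Liver RNA was sequenced on an Illumina NextSeq, with 1 lane per sample. The deposited values are raw read counts per gene symbol, without normalisation, which the authors made with ERANGE according to the study's methods. The submitters' processing notes instead list cutadapt, STAR, HTSeq, DESeq2 and the build mm10, so which of these made the counts is not settled, and a strand setting is not given in the sources used here.

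Counts were analysed with edgeR 4.0.16 in R 4.3.3. Genes were kept by filterByExpr (minimum count 10, minimum total 15), which left 14328 of 23337, and were scaled by TMM (factors 0.837 to 1.22). All 8 libraries entered a single quasi-likelihood fit with a term for each group, and p-values were adjusted by Benjamini-Hochberg over all genes tested. SE was obtained from the size of the log2 fold change and the F statistic, as their ratio after taking the root of F. With 2 against 2 an exact permutation test cannot go below 0.333, so the model's shared spread carries every adjusted p. Alternatives were RLE scaling, DESeq2 1.42.0, limma-trend (limma 3.58.1), no filter, a replicate block, removal of a transcript length trend (alone and with the block) and each library left out in turn.

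The members and the lists of other genes were chosen with earlier results of these data known. The text names all members, Tnf, Lta and Fasl, the CHOP list, up to 6 genes per list with an adjusted p under 0.05 in a genotype comparison, the 6 genes most like Tnfrsf12a and Tnfrsf10b (mean of at least 1 CPM), and Syvn1. Markers fall outside this rule. All 107 list genes were in the files and 90 were tested, and 44 of 46 markers of 9 cell types were found. CPM per kilobase used exon lengths from GENCODE M21 on GRCm38. The edgeR, DESeq2 and limma fits were tested on simulated data, in the refed genotype comparison only. The other alternatives were not tested so, and the simulated counts held no transcript length trend. At the depth of these libraries (40210576 to 49117080 counts) floors cover counting error only. Figures were drawn with matplotlib 3.10.9.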

Additional observations from a re-analysis of the deposited data

Results flagged for a closer look

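In these libraries Tnfrsf12a differed on refeeding in opposite directions in the 2 genotypes. Both refed WT libraries (6.91 and 5.38 CPM) were below both fasted WT libraries (7.81 and 8.86 CPM), and both refed HRD1Alb libraries (42.0 and 47.7 CPM) were above both fasted HRD1Alb libraries (11.9 and 14.4 CPM). Such a gap was seen downward in WT for 29.6% of all genes and upward in HRD1Alb for 29.2%. The WT difference (log2 -0.44 ± 0.20, SE) did not pass in edgeR, so a fall in WT is not established. The difference between the refeeding effects was 2.21 ± 0.28 on the log2 scale (SE, n = 2 per group). It did not pass an adjusted p of 0.05 in edgeR, where none of 14328 genes did (1209 at an unadjusted p under 0.05), while DESeq2 called 105 genes, Tnfrsf12a among them, and limma 0. Groups of 2 libraries are too small for a test of single deviating libraries.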

How the results depend on the processing

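Of 600 member fold changes under the alternatives, 61 moved by more than the spread between replicates and 539 did not. Reversals were sought only where a member had passed in the main fit, and there 0 were found. Other fold changes did change sign when 1 library was left out. These included Tnfsf12 (-0.20 to 0.84) and Tnfsf10 (-0.62 to 0.47) on refeeding in HRD1Alb, and Tnfrsf10b (-0.96 to 0.31) on refeeding in WT. Counts were less stable. With DESeq2 the members called were 2 fasted, 5 refed, 2 on refeeding in WT and 1 for the interaction, and the other pathway genes called were 8 fasted and 25 refed. Removal of the length trend gave 1 member fasted, 4 refed (Tnfrsf12a and Tnfrsf10b higher, Fas and Tnfsf10 lower) and 2 on refeeding in WT, and with the replicate block as well it gave 4 refed and 2 on refeeding in WT. Leaving out 1 library at a time, with the lone library of its group assumed to vary like the others, gave 0 to 4 members fasted, 0 to 5 refed, 0 to 2 on refeeding in WT, 0 to 4 on refeeding in HRD1Alb and 0 to 2 for the interaction, and 0 to 16 pathway genes fasted and 1 to 53 refed. The highest counts came from a refed HRD1Alb library left out (for the 53, the first). The 0 fasted pathway genes came from any WT or fasted HRD1Alb library left out, the 0 members and 1 pathway gene refed from either refed WT library, and the 0 members on refeeding in HRD1Alb from either fasted HRD1Alb library. Over all genes, the refed genotype calls ran from 1 (without the first refed WT library) to 7705 (without the first refed HRD1Alb library) beside 1709, and the fasted ones from 0 to 3159 beside 194, with DESeq2 at 3190 and 1094. Same-numbered libraries deviated together with r = 0.0161 to 0.179 (over 0.1 in 1 of 6 pairs of groups), so the numbers were not taken as pairs. The replicate block gave 0 members fasted, 2 refed and 2 on refeeding in HRD1Alb, and 3 and 12 pathway genes. Depth left Lta (0 to 4 counts) and Fasl (2 to 14 counts) untested.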
